A study of Mus musculus with 20 samples.

Results

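The comparison described here set 2 microarrays of marrow cultures grown with interleukin 6 (IL-6) against 2 arrays of control cultures. Both were taken at the later of the study's collection points, D2. These 4 arrays, chosen by their titles D2-IL6 and D2-Control, belong to a series of 20 mouse Clariom S arrays in 10 groups of 2. All cultured cells started as lineage-negative marrow progenitors of female wild-type C57BL/6 mice and grew in erythropoietin medium, and the D2-IL6 cultures received 100 ng/mL of IL-6 as well, beginning with the first medium. The labels define D1 and D2 no further, and the series names 2 donor mice without tying arrays to them, so the spread between the 2 arrays of a group may be biological or technical. The other cultured arrays (2 D1-Control and 2 D1-IL6) shared the estimate of the spread, and the arrays of freshly isolated erythroblasts entered only 1 alternative fit.

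Erythropoietin drives committed marrow progenitors through a series of erythroblast stages, in which GATA1, KLF1 and their partners switch on haem synthesis, globins and the red cell membrane while the cells divide and then stop. The competing myeloid program rests on the transcription factor PU.1, encoded by Spi1, and on colony-stimulating factor receptors, and it yields monocytes, macrophages and granulocytes. IL-6 signals through its own receptor and the shared chain gp130, encoded by Il6st, to JAK kinases and STAT3. It is a main inducer of acute phase genes and is known to act on myeloid cells.

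Levels are given as the deposited log2 signals, so that a difference of 1 is a 2-fold ratio. A signal was called near background if it fell below the 95th percentile of the 23 background probe sets on its array, between 7.35 and 7.71 in the D2 arrays. Of 19572 named probe sets, 648 passed in limma at an adjusted p under 0.05, which is 3.31%. Of these 571 were higher with IL-6 (2.92%) and 77 lower (0.393%), and 2808 had an unadjusted p under 0.05. The rises were large and the falls small. The median rise was 2.17 on the log2 scale, with 317 rises above 2 and 97 above 4, whereas no fall went past -2 and the median fall was -1.13. The median difference over all probe sets was -0.07. Of the 571 that rose, 220 were near background in both D2-Control arrays and above it in both D2-IL6 arrays, 177 were above it in all 4 arrays and 52 near it in all 4. Of the 77 that fell, 49 were near background in all 4 arrays. Without each of the 4 arrays in turn, 337 of the rises and 4 of the falls passed every time.

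The arrays of a D2 pair lay closer to each other (r = 0.982 across genes in both pairs) than to the arrays of the other group (r = 0.965 to 0.969). Both pairs differed within themselves more than the D1 pairs did, by a median of 0.26 in D2-Control and 0.28 in D2-IL6 against 0.20 and 0.19 for probe sets above background. The shared spread averages over the D1 and D2 pairs. The standard errors and p-values given for D2 therefore tend to be too small, and those for D1 too large. With the 4 D2 arrays alone 381 probe sets rose and 7 fell. In the 4 D2 arrays 34.9% to 37.3% of named probe sets lay above background.

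**Figure D1:**
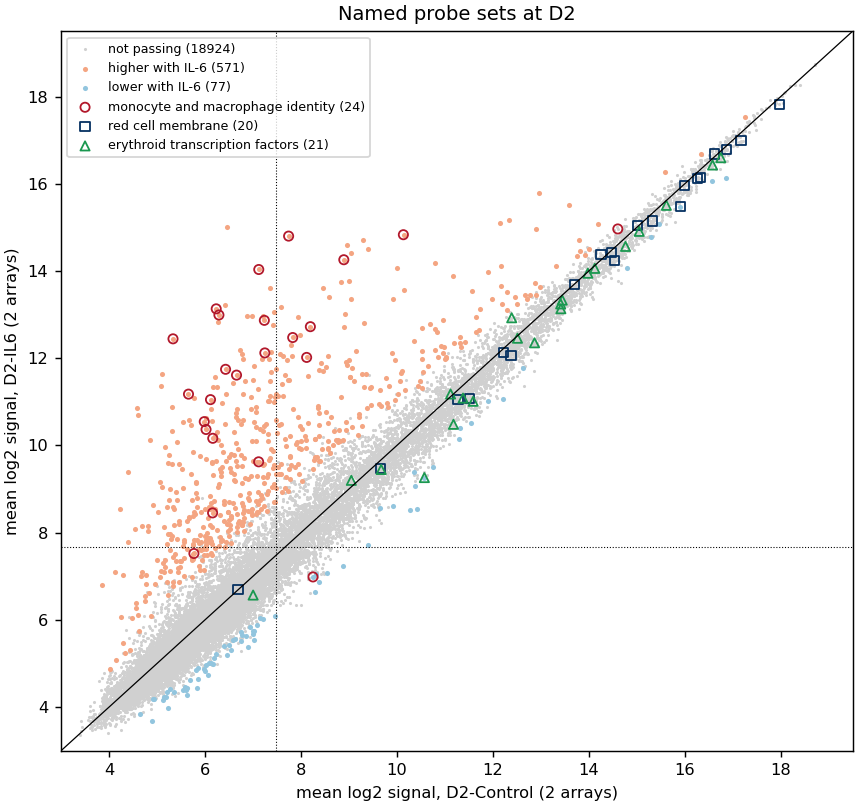
Mean log2 signal of each named probe set in the 2 D2-Control arrays (x axis) against the 2 D2-IL6 arrays (y axis); the diagonal marks equal signal and the dotted lines the mean background level of each group. The 571 probe sets that rose spread far above the diagonal, with nearly all of the 24 monocyte and macrophage genes among them, while the 20 red cell membrane genes and most of the 21 erythroid transcription factors lie along it.

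Genes that mark monocytes and macrophages rose together. Of 24 measured, 22 were higher with IL-6, 1 was lower and 1 did not pass, with a median difference of 4.79, against 2.92% of all probe sets higher and a median of -0.07. The list holds genes that earlier results of these data had named, so its count is a description. The counts of the lists below are descriptions too. They stand against 2.92% of all probe sets higher and 0.393% lower. Csf1r, which encodes the M-CSF receptor that macrophages need, read 7.36 and 7.12 in D2-Control and 13.03 and 12.71 in D2-IL6. That is a difference of 5.63 ± 0.24 (standard error, n = 2 arrays per group, adjusted p = 6.91e-07), with both IL-6 arrays far above both control arrays and 1 control array near background. Ly6c2, a surface antigen of inflammatory monocytes, read 8.41 and 9.38 against 14.16 and 14.36, and Ccr2, the chemokine receptor that brings such monocytes out of the marrow, 8.01 and 7.64 against 12.86 and 12.10. Both were above background in control and still differed by 5.37 ± 0.30 and 4.65 ± 0.31 (adjusted p = 3.19e-06 and 1.10e-05). Lyz2, the lysozyme of phagocytes, was well measured in all 4 arrays, at 10.35 and 9.93 in control and 14.73 and 14.94 with IL-6 (4.70 ± 0.19, adjusted p = 6.91e-07). Adgre1, an adhesion GPCR long used to mark macrophages, differed less, at 6.87 and 7.37 against 9.72 and 9.53 (2.51 ± 0.36, adjusted p = 0.0021). Cd14, a coreceptor for bacterial lipopolysaccharide, rose by 1.75, with 1 of its IL-6 arrays near background, and its call ended without D2-Control replicate 2 or D2-IL6 replicate 1. Cx3cr1, the fractalkine receptor of patrolling monocytes, moved the other way. It read 8.24 and 8.26 in control and 7.02 and 6.95 with IL-6 (-1.27 ± 0.26, adjusted p = 0.0256), and lost its call without any 1 of the 4 arrays. Csf2rb, the shared signalling chain of the IL-3 and GM-CSF receptors, was high in both groups (14.85 and 14.36 against 15.41 and 14.52) and did not pass. On bulk arrays such as these, fewer cells of a type and less RNA per cell cannot be told apart.

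The mean log2 signal of that list was 7.40 and 7.21 in the D2-Control arrays and 11.96 and 11.62 in the D2-IL6 arrays. At D1 it was 10.22 and 10.90 without IL-6 and 10.97 and 11.27 with it. D2-Control was thus the group with the low values, and the rises given here are measured against it. By mean signal, the neutrophil, primary granule, NADPH oxidase, lysosomal, C-type lectin, Fc receptor and actin lists below had the same low group. The myeloid transcription factors did not (8.36 and 8.14 in D2-Control, 8.025 and 8.27 in D1-Control). Nor did the interferon list (8.50 and 8.43 against 8.11 and 8.16). The share of monocytes in the cultures was not measured, so its part in the results below was not tested.

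The 20 largest rises, in genes with no overlap of arrays between groups, ran from 8.55 to 5.60 and all passed without each array in turn. Mmp8, a collagenase stored in neutrophil granules, headed them with 6.74 and 6.18 in D2-Control and 15.19 and 14.84 in D2-IL6 (8.55 ± 0.40, adjusted p = 1.20e-06). As control lay near background, its rise is bounded at 7.53 or more. Next stood Ms4a6d, a tetraspan surface protein of macrophages, at 4.91 and 5.76 against 12.34 and 12.55 (7.11 ± 0.42, at least 4.96). Emb, an adhesion glycoprotein that accompanies monocarboxylate transporters, followed at 8.05 and 7.44 against 15.04 and 14.56 (7.06 ± 0.27). Lgals3, which encodes the macrophage lectin galectin-3, read 7.78 and 6.46 against 14.11 and 13.96 (6.91 ± 0.49). The matrix protein gene Tgfbi rose by 6.90 (at least 5.65), the membrane protease inhibitor gene Spint1 by 6.81 (at least 5.74), the endolysosomal nuclease gene Pld4 by 6.70 (at least 5.51) and the cathepsin gene Ctsh by 6.55 (at least 5.35). Hp, Tlr13, Anxa2, Tyrobp, Lcn2, Fcgr3, Vcan, Lgals1, Csf1r, Ifitm1, Pkm and S100a4 completed the set, between 6.53 and 5.60. In each the 2 IL-6 arrays stood far above both control arrays, and most belong to the groups described below.

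**Figure D2:**
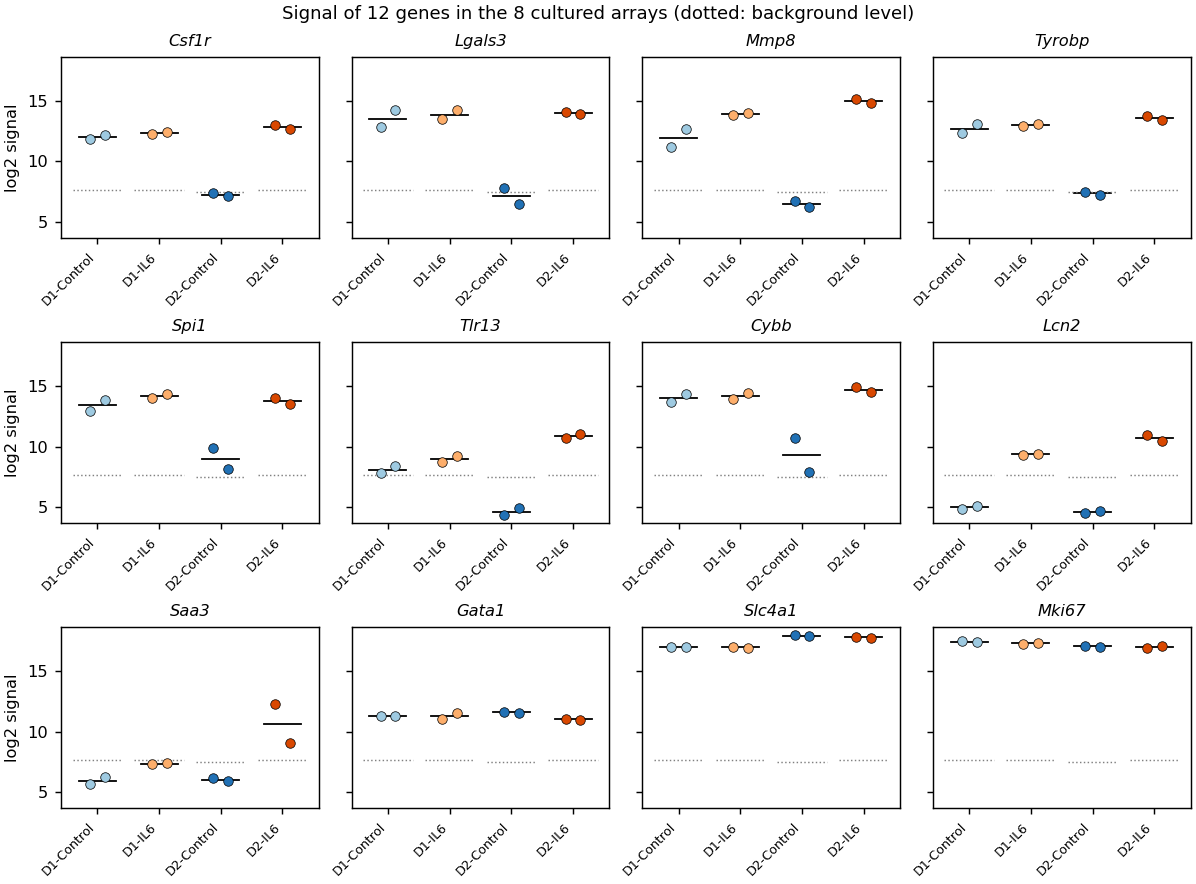
Log2 signal (y axis) of 12 genes in each of the 8 cultured arrays (points), by group (x axis); bars are means of 2 arrays and dotted lines the mean background level. Csf1r, Lgals3, Mmp8, Tyrobp, Spi1, Tlr13 and Cybb are lowest in D2-Control, Lcn2 is high in both IL-6 groups, the D2-IL6 arrays of Saa3 lie apart at 12.25 and 9.04, Slc4a1 and Mki67 differ little between the D2 groups, and Gata1 reads 11.61 and 11.58 against 11.08 and 10.95 without passing.

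Promoter sequences are shown for the highest rises, with the letters that STAT, PU.1 and C/EBP factors are known to prefer. Of the 20, 14 had an entry in the RefSeq promoter table (GRCm38.p6) on a chromosome printed here, and the 250 bases before the start were searched on both strands for TTCNNNGAA (STAT), GAGGAA (PU.1) and TTGCNNAA (C/EBP). Among the 14, 4 held the PU.1 letters, 4 the C/EBP letters and 0 the STAT letters. The sequences with PU.1 letters are shown 5′ to 3′ on the strand of the gene, with every match in capitals (TTCCTC is the PU.1 motif on the other strand). No matches overlapped.
Mmp8 (chr9:7558179-7558428, + strand): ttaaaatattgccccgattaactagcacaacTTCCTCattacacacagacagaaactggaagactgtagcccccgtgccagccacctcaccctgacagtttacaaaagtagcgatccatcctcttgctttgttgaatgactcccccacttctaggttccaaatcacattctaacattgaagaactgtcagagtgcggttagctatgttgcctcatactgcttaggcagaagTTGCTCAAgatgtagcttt
Tlr13 (chrX:106143025-106143274, + strand): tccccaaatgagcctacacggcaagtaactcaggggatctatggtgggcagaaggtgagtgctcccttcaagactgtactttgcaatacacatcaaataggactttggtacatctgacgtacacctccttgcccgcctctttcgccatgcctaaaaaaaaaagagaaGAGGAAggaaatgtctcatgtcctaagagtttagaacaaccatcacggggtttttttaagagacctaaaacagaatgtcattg
Lcn2 (chr2:32387740-32387989, - strand): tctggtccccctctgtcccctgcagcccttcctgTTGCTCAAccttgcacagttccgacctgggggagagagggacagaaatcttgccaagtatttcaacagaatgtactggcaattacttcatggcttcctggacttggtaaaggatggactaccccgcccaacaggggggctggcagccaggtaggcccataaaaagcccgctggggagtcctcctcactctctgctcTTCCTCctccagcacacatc
Fcgr3 (chr1:171059404-171059653, - strand): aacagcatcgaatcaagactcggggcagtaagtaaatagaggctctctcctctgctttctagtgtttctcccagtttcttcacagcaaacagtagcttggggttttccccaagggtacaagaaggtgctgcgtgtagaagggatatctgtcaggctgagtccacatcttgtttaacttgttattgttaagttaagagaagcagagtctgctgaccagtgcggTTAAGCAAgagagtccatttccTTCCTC
The other capitals are C/EBP matches, which Mmp8, Lcn2 and Fcgr3 hold as well. Over all risers with an entry, 153 of 472 held the PU.1 letters (32.4%), against 3525 of 15688 tested genes (22.5%) and 11 of 61 fallers (18%). The C/EBP letters stood in 9.96% of risers and 9.02% of all, and the STAT letters in 6.36% and 6.77%. These are matches of letters, not binding sites.

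Among the transcription factors of the myeloid lineage, PU.1 itself differed most. Spi1 read 9.87 and 8.13 in D2-Control and 13.99 and 13.55 in D2-IL6 (4.77 ± 0.48, adjusted p = 1.73e-04), above background in all 4 arrays. Of 28 factors 4 rose, the others being Tfec at 4.25 ± 0.41 and Mitf at 1.83 ± 0.28, which encode related factors of lysosomal and macrophage genes, and Id2 at 3.48 ± 0.57, an inhibitor of E proteins. Mitf was near background in all 4 arrays. All 4 passed without each array in turn. Cebpa, which drives granulocyte and monocyte fate, read 7.11 and 7.0 against 6.87 and 7.12, near background in all 4 arrays, as did the IL-6 responsive factor Cebpb at 5.87 and 5.73 against 5.86 and 5.37. Irf8, a factor of monocyte and dendritic fate, read 7.42 and 7.27 against 7.98 and 7.44 and did not pass. Of the 24 factors that did not pass, 12 were near background throughout.

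Neutrophil genes rose in part. Of 20 measured, 8 rose and 12 did not pass, and 11 of those 12 were near background in all 4 arrays. Beside Mmp8 these were Hp, the haemoglobin-binding haptoglobin, Lcn2, the siderophore-binding lipocalin 2, Wfdc21, Csf3r, S100a8, Mcemp1 and Chil3, all near background in both control arrays. Hp read 5.11 and 5.11 against 11.93 and 11.36 (6.53 ± 0.32, at least 4.16) and Lcn2 4.52 and 4.68 against 10.95 and 10.46 (6.11 ± 0.28, at least 3.22). Csf3r, through which G-CSF acts on granulocytes, read 5.50 and 5.01 against 9.76 and 9.79 (4.52 ± 0.30, at least 2.29). The calprotectin genes parted. S100a8 rose from 7.07 and 6.22 to 10.84 and 9.28 (3.42 ± 0.60, adjusted p = 0.0096), a call that ended without D2-Control replicate 2 or D2-IL6 replicate 1, while its partner S100a9 read 7.86 and 7.50 against 8.19 and 7.10 (-0.04 ± 0.54). The secondary granule gene Camp stayed near background throughout (0.32 ± 0.33).

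The list of primary granule and granulocyte progenitor genes, not all of which encode granule proteins, showed 5 rises among 14 members and no fall. Igsf6, an immunoglobulin superfamily member of myeloid cells, read 5.35 and 5.11 against 9.58 and 9.61 (4.36 ± 0.30). Elane, neutrophil elastase, read 8.84 and 9.78 against 12.48 and 13.14 (3.50 ± 0.34, adjusted p = 1.39e-04) and Prtn3, proteinase 3, 9.28 and 8.77 against 11.55 and 11.61 (2.55 ± 0.27). Those rises passed without each array. Ctsg at 1.75 (at least 0.14) lost its call without D2-Control replicate 1, D2-Control replicate 2 or D2-IL6 replicate 2, and Mpo, myeloperoxidase, at 1.13 without any 1 of the 4. Ms4a3, a marker of granulocyte and monocyte progenitors, lay just outside the threshold at 2.25 ± 0.54 (adjusted p = 0.0505).

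The genes by which phagocytes kill and digest were among those that rose. Of 7 subunits and partners of the NADPH oxidase, 4 were higher. Cybb, the catalytic gp91phox chain, read 10.74 and 7.86 in control and 14.92 and 14.50 with IL-6 (5.42 ± 0.68, adjusted p = 9.30e-04). Its membrane partner Cyba rose by 4.90 ± 0.29, the cytosolic regulator Ncf4 by 4.51 ± 0.42 and the GTPase Rac2 by 1.17 ± 0.21, the last losing its call without D2-Control replicate 1, D2-Control replicate 2 or D2-IL6 replicate 1. Of 29 lysosomal genes 15 rose and none fell, with a median of 1.46. Ctsh read 6.70 and 5.86 against 13.10 and 12.56. Gm2a, the activator of ganglioside breakdown, rose by 5.47 ± 0.48 and Ctsc, which activates granule proteases, by 5.32 ± 0.34 (at least 4.60). Ctsz rose by 4.55 ± 0.27, Man2b1 by 4.38 ± 0.43 and Hexa by 4.14 ± 0.37. These 6, Ctsh included, passed without each array. Lamp2, a lysosomal membrane protein far above background in control too (15.54 and 15.64), rose by 0.69 ± 0.11 to 16.25 and 16.32, and its call ended without D2-Control replicate 1. Slc11a1, a metal transporter of the phagosome, rose by 5.18 ± 0.41 (at least 3.87), with 4 more of 24 myeloid carriers and channels.

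Receptors that sense microbes rose in 13 of 27 cases, with a median of 1.44. Tlr13, a sensor of bacterial ribosomal RNA in mice, read 4.31 and 4.87 in control and 10.73 and 11.01 with IL-6 (6.28 ± 0.34, at least 3.38). Tlr7, which binds single-stranded RNA, read 5.76 and 6.74 against 11.59 and 11.07 (5.08 ± 0.43, at least 3.85) and its neighbour on the X chromosome, Tlr8, rose by 3.70 ± 0.32 (at least 3.28). Unc93b1, the chaperone that carries these receptors to endosomes, rose by 3.54 ± 0.37 (at least 1.45). The other endosomal receptors did not pass and were near background in all 4 arrays, the DNA sensor Tlr9 at 1.40 ± 0.44 (adjusted p = 0.154) and the sensor of double-stranded RNA Tlr3 at 0.13 ± 0.42 (adjusted p = 0.929). At the cell surface, Tlr1 rose by 2.33, but with control and 1 IL-6 array near background its rise is bounded only at 0.12 or more. Tlr6 rose by 1.87 and was near background throughout. Their partner Tlr2 rose by 1.87 and lost its call without any 1 of the 4 arrays. Tlr4, the lipopolysaccharide receptor, read 7.09 and 6.55 against 7.97 and 7.91 and did not pass (1.12 ± 0.36, adjusted p = 0.171). Casp1, which cleaves interleukin 1 beta, rose by 4.06 ± 0.29, its adaptor Pycard by 3.25 ± 0.25 and the sensor Nlrp3 by 2.73 ± 0.27, Nlrp3 from and to levels near background. Aim2, another inflammasome sensor of the same list, had a difference of -0.79 ± 0.28 and did not pass (adjusted p = 0.217). Irak3, an inhibitor of Toll-like receptor signals, rose by 3.77 ± 0.32.

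Of 13 C-type lectin receptors 8 rose and none fell (median 2.23), and all 8 passed without each array. Of those 8, 6 are Clec4 genes on chromosome 6. Clec4a3 read 5.94 and 5.38 against 11.41 and 10.94 (5.52 ± 0.51, at least 3.69). Clec4a1 rose by 4.42 ± 0.39 and Clec4e, the receptor Mincle for mycobacterial glycolipid, by 4.27 ± 0.34. Clec4d, its partner, was above background in all 4 arrays and rose from 10.07 and 9.75 to 12.36 and 11.91 (2.23 ± 0.28). Probe sets of close relatives such as the Clec4a, Ms4a6, Ifitm and Fc receptor genes can share signal, so the member behind a value is less certain than the family.

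Fc receptors and the paired receptors that signal through ITAM adaptors gave 13 rises among 28 members. Both common adaptors rose: Tyrobp (DAP12) from 7.48 and 7.23 to 13.81 and 13.43 (6.27 ± 0.27, adjusted p = 6.91e-07) and Fcer1g, the Fc receptor gamma chain, from 6.86 and 6.73 to 10.67 and 10.50 (3.79 ± 0.30). The members that rose include activating and inhibitory receptors, while 15 of the 28 did not pass. Fcgr3, an activating IgG receptor, read 7.38 and 6.37 against 13 and 12.95 (6.10 ± 0.37), the inhibitory Fcgr2b rose by 4.17 ± 0.41, the inhibitory Pirb by 5.19 ± 0.32 and Lilrb4a by 5.15 ± 0.40. Among 31 kinases, phosphatases and adaptors downstream of such receptors 14 rose and 8 of these passed without each array. Ptpn6, the phosphatase SHP-1 that restrains cytokine and immune receptors, read 5.11 and 5.11 against 9.59 and 8.50 (3.94 ± 0.47, at least 1.56). Pik3ap1 rose by 3.71 ± 0.48, the leukocyte phosphatase Ptprc (CD45) by 3.48 ± 0.48 and Dock2, an activator of Rac, by 2.80 ± 0.31. Syk, the kinase that ITAM motifs recruit, rose less, from 9.02 and 8.55 to 10.08 and 10.08 (1.30 ± 0.27), and lost its call without D2-Control replicate 2, D2-IL6 replicate 1 or D2-IL6 replicate 2.

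Genes of cell shape and motility formed another large group. Of 36 actin regulators, annexins and S100 proteins 24 rose and none fell, with a median of 2.79, and 21 of the 24 passed without each array. Anxa2, which links membranes to actin, read 5.18 and 5.01 against 11.46 and 11.28 (6.28 ± 0.26, at least 3.89), and its binding partner S100a10 rose by 4.0 ± 0.38 (at least 3.17). S100a4 rose by 5.60 ± 0.45 and the leukocyte myosin gene Myo1g by 4.83 ± 0.44. Anxa1 rose by 5.27 ± 0.31 (at least 2.63) and S100a6 by 5.03 ± 0.37 (at least 2.86). Of the 24, 10 were above background in every array, among them Tmsb10, which binds actin monomers, at 10.10 and 9.92 against 14.44 and 13.68 (4.05 ± 0.30), and S100a11, at 10.02 and 9.82 against 13.57 and 13.13 (3.43 ± 0.26). The signals thus differed where both groups were measurable as well. Among 27 integrin and adhesion genes 11 rose, with the galectin genes Lgals3 and Lgals1 (5.77 ± 0.40), the selectin ligand Selplg (4.32 ± 0.23) and Cd93 (4.26 ± 0.31). So did the chains of the integrin Mac-1, Itgam (4.34 ± 0.38, at least 2.88) and Itgb2 (3.16 ± 0.45, at least 2.02). Cd44, the hyaluronan receptor, rose by 1.35 ± 0.25, a call lost without D2-Control replicate 1 or D2-IL6 replicate 2.

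Secreted matrix and protease genes rose in 14 of 31 cases, 13 of them from near background in control. Beside Mmp8, Tgfbi and Spint1 these included Vcan, the proteoglycan versican, at 6.52 and 7.44 against 13.15 and 12.80 (5.99 ± 0.42, at least 5.49), the fibronectin gene Fn1 at 4.80 ± 0.47 and the coagulation factor XIII chain F13a1 at 4.0 ± 0.37. Of 24 chemokines and chemoattractant receptors 6 rose, led by Ccr2, the anaphylatoxin receptor gene C3ar1 (3.52 ± 0.47), Ccl9 (3.35 ± 0.54) and Ccl3 (3.10 ± 0.46). In 20 eicosanoid genes 6 rises were found. Ptafr, the receptor of platelet-activating factor, rose by 4.19 ± 0.36, and Pla2g7, the enzyme that inactivates this lipid, by 4.01 ± 0.44. Ltb4r1, the leukotriene B4 receptor, rose by 3.41 ± 0.30 and Alox5ap, needed for leukotriene synthesis, by 2.97 ± 0.24. Complement and scavenger receptors gave 6 rises of 24, with Cd93, the complement stabiliser properdin (Cfp, 4.16 ± 0.36) and the scavenger receptor Msr1 (3.33 ± 0.33). C1qa, a complement chain of mature macrophages, stayed near background and did not pass (1.68 ± 0.42, adjusted p = 0.0608).

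Antigen presentation rose in part. Of 10 MHC class II genes 5 were higher, led by the peptide exchange genes H2-DMb1 (7.61 and 6.53 against 10.64 and 11.12, 3.81 ± 0.36) and H2-DMa (2.85 ± 0.52), and by H2-Ab1 (2.64 ± 0.42). H2-DMb1 and H2-Ab1 passed without each array, while H2-DMa lost its call without D2-Control replicate 2 or D2-IL6 replicate 2, and H2-Eb1 and H2-Aa without either IL-6 array or 1 of the control arrays. For MHC class I the 4 rises of 14 fell on antigen processing. All 3 immunoproteasome subunits were higher, Psmb8 by 2.60 ± 0.27, Psmb9 by 1.91 ± 0.31 and Psmb10 by 1.76 ± 0.28, as was the peptide transporter gene Tap1 by 1.51 ± 0.27, which lost its call without D2-Control replicate 1 or D2-IL6 replicate 1.

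The genes of the IL-6 pathway itself moved little as a list. Of 36 measured, 3 rose (8.33%, against 2.92% of all probe sets) and none fell, and the median of the list was 0.05. Il6st, which encodes gp130, read 8.13 and 7.53 against 10.67 and 11.01 (3.01 ± 0.31, adjusted p = 2.28e-04), and Ptpn6, above, was another. Batf, an AP-1 factor induced by STAT3, rose by 1.38 ± 0.30 and lost its call without D2-Control replicate 1, D2-IL6 replicate 1 or D2-IL6 replicate 2. Il6ra, the ligand-binding chain, read 10.17 and 10.47 against 11.08 and 10.99 (0.71 ± 0.28, adjusted p = 0.276). Stat3 read 7.94 and 10.12 against 10.17 and 11.09 (1.60 ± 0.57, adjusted p = 0.217), with its control arrays far apart. Socs3, the feedback inhibitor that STAT3 induces, was near background in all 4 arrays, from 4.87 to 5.16. The erythropoietin and STAT5 list had Ptpn6 as its 1 rise among 19 genes, and Jak2 read 12.88 and 12.32 against 12.22 and 11.90 (-0.54 ± 0.24, adjusted p = 0.341).

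Of 19 acute phase genes, 3 rose and 1 fell. Beside Hp and Lcn2, Saa3, the serum amyloid A form made by macrophages, read 6.15 and 5.89 in control and 12.25 and 9.04 with IL-6 (4.62 ± 0.76, adjusted p = 0.0061, at least 3.16). Its IL-6 arrays were far apart but both above control, and the call ended without D2-Control replicate 2. Orm3 fell by 1.10 near background and lost its call without any 1 of the arrays. Of 28 NF-kB pathway genes 3 rose (10.7%, against 2.92% of all probe sets). Of these the subunit Rel, at 3.01 ± 0.29 (at least 1.26), passed without each array. Tnf at 1.59 lost its call without D2-Control replicate 2, D2-IL6 replicate 1 or D2-IL6 replicate 2, and Nfkbiz at 1.51 without D2-Control replicate 1 or D2-IL6 replicate 2.

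Interferon-linked genes split. Of 31 measured, 8 rose: Ifitm1 (9.30 and 8.62 against 15.18 and 14.01, 5.63 ± 0.35), Ifitm2 (2.72 ± 0.16) and Ifitm3 (2.07 ± 0.17), membrane proteins that block virus entry, the lysosomal reductase gene Ifi30 (3.80 ± 0.35), the DNA-binding Ifi204 (3.69 ± 0.29), Gbp3, Trim30a and Samhd1. Gbp3 lost its call without D2-Control replicate 1, Trim30a without D2-Control replicate 2 or D2-IL6 replicate 2, and Samhd1 without any 1 of these 3 arrays. The other 23 did not pass and had differences between -0.77 and 0.66. Ifi204 belongs to the IFI200 family on chromosome 1, examined after its values were seen, of which 5 of 9 measured members rose. Ifi207 read 6.34 and 6.51 against 11.42 and 10.92 (4.74 ± 0.43, at least 3.68). Ifi211 rose by 3.17 (at least 1.05) and Mndal by 2.03 (at least 1.85). Ifi209 rose by 2.36 and lost its call without D2-Control replicate 1 or D2-IL6 replicate 1. Aim2, the inflammasome sensor of the same cluster, read 9.93 and 9.41 against 9.0 and 8.76 and did not pass.

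Among metabolic genes the calls fell on single members. Rises made up 16% of the glycolysis, 17.4% of the lipid handling and 8.7% of the antioxidant list, against 2.92% of all probe sets. Pkm, the pyruvate kinase expressed outside liver and mature red cells, read 7.63 and 7.24 against 12.91 and 13.20 (5.61 ± 0.27, adjusted p = 1.20e-06), 1 of 4 rises among 25 glycolysis genes. Plin2, which coats lipid droplets, read 8.27 and 7.68 against 12.59 and 12.49 (4.57 ± 0.26) and Lrp1, a lipoprotein and scavenger receptor, rose by 3.44 ± 0.39, among 4 of 23 lipid handling genes. Mgst1, a membrane-bound glutathione transferase, rose by 5.32 ± 0.30 (at least 3.59), with Mgst2, lost without D2-Control replicate 2 or D2-IL6 replicate 2, the other of 2 rises among 23 antioxidant genes. Of the 5 ceramide synthase genes measured, also examined after their values were seen, Cers5 and Cers6 rose by 4.78 ± 0.34 (at least 3.0) and 4.52 ± 0.56. The cholesterol synthesis and respiratory chain lists, of 17 and 23 genes, held no gene that passed in limma. An unadjusted p under 0.05 was found for 2 of the 17 cholesterol genes, 1 higher and 1 lower. It was found for 7 of the 23 respiratory chain genes, all higher, against 2808 of all 19572 probe sets. In the respiratory chain list 11 genes were higher without overlap, against 16.3% of all probe sets, and 0 were lower. Its differences were small, 20 of 23 of them positive, with a median of 0.15 beside -0.07 for all probe sets.

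**Figure D3:**
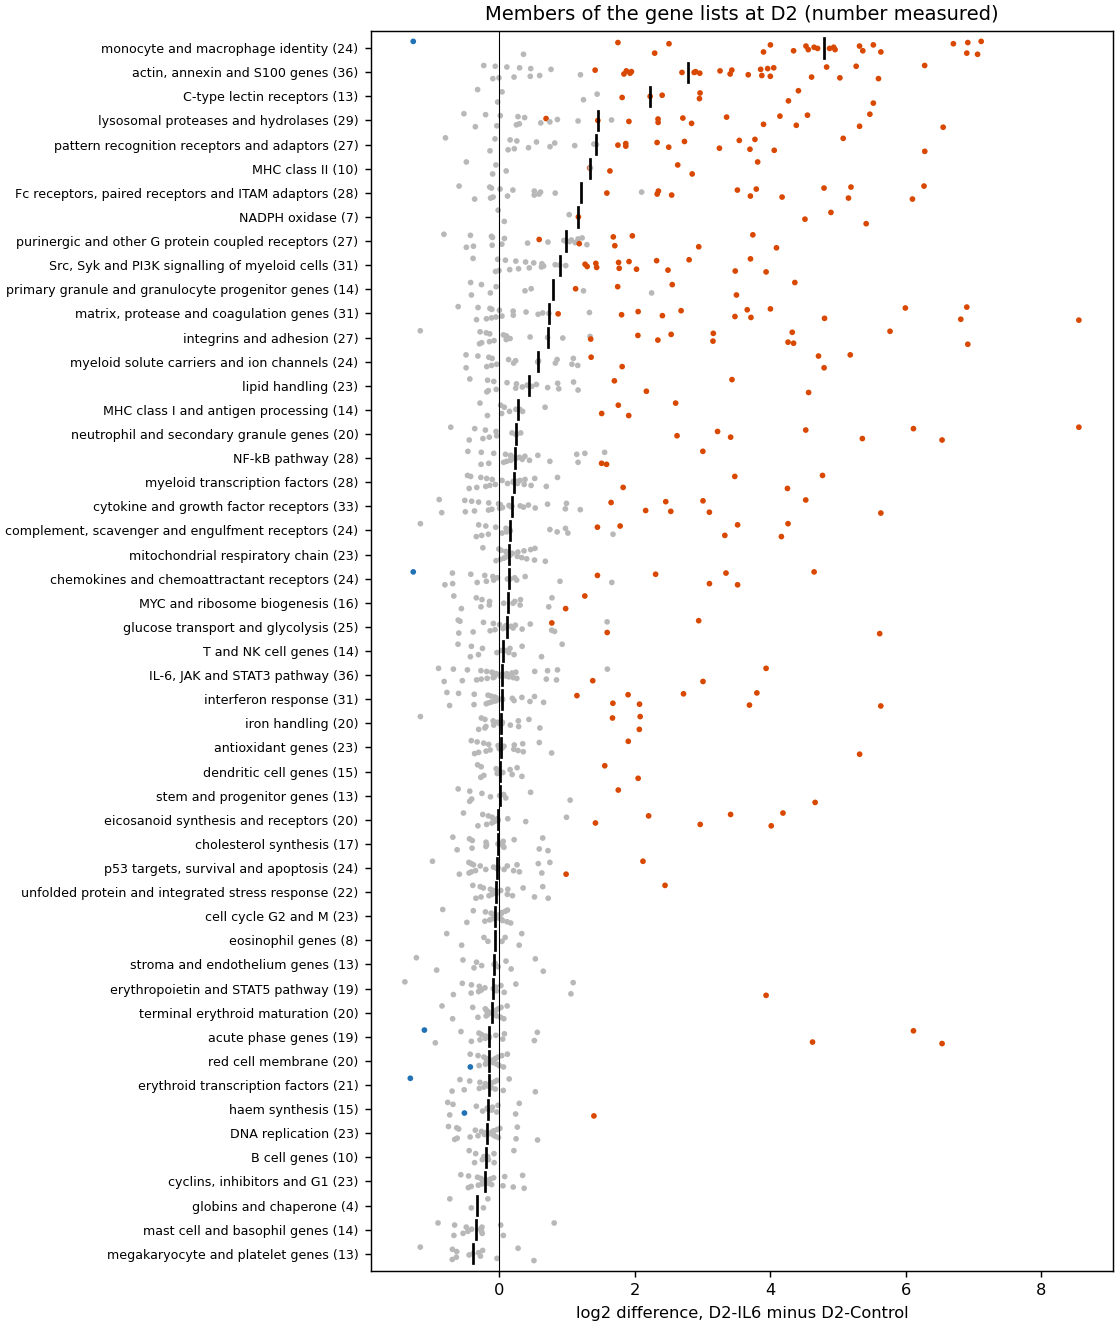
Log2 difference D2-IL6 minus D2-Control (x axis) of every measured member of the 51 gene lists (rows, number measured in brackets); orange points rose, blue points fell, grey points did not pass and black bars are list medians. Medians run from 4.79 for monocyte and macrophage identity to -0.39 for megakaryocyte and platelet genes, and the medians of the erythroid and cell cycle lists lie between -0.32 and -0.05.

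Erythroid genes differed little, and few passed, but most differences lay below 0. Lower without overlap were 10 of 20 red cell membrane genes, 10 of 21 erythroid transcription factors and 3 of 4 genes of the globin list, against 22.5% of all probe sets, and 4, 3 and 0 genes of these lists had a positive difference. The list medians were -0.15, -0.15 and -0.32, beside -0.07 for all probe sets. Of the 4 genes measured in the globin list, 3 were near background in all 4 arrays. The adult globin genes, such as Hba-a1 and Hbb-bs, and the chaperone gene Ahsp had no named probe set here. The values of that list therefore do not describe adult globin expression. Slc4a1, the band 3 anion exchanger, read 17.98 and 17.96 in D2-Control and 17.88 and 17.77 in D2-IL6 (-0.14 ± 0.06, adjusted p = 0.339). Alas2, the first enzyme of erythroid haem synthesis, read 18.07 and 17.98 against 18.02 and 18. Both were far above background and the 2 groups of Alas2 overlapped. Klf1, a master factor of erythroid genes, read 13.94 and 14.02 against 13.85 and 14.05 (-0.03 ± 0.13), and the signs of Alas2 and Klf1 turned after quantile normalization. Gata1, the central erythroid factor, read 11.61 and 11.58 against 11.08 and 10.95, lower in both IL-6 arrays but short of the threshold (-0.58 ± 0.23, adjusted p = 0.282). Epor, the erythropoietin receptor, at -0.30 ± 0.21, Rhag at -0.18 ± 0.11 and the transferrin receptor gene Tfrc at -0.21 ± 0.11 did not pass either. The labelled identity of the cells thus had these markers far above background in both groups.

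Among 21 erythroid transcription factors 1 passed. Nfia, known from human progenitors to favour erythroid over granulocytic fate, fell from 10.77 and 10.38 to 9.05 and 9.47 (-1.31 ± 0.28, adjusted p = 0.0321), and the call ended without D2-Control replicate 1, D2-Control replicate 2 or D2-IL6 replicate 1. Among 20 red cell membrane genes only Kel, a blood group metalloprotease, passed, falling by 0.42 ± 0.10 with a call that ended without D2-Control replicate 1 or D2-IL6 replicate 2, and the other 19 lay between -0.43 and 0.12. Of 15 haem synthesis genes Slc25a37, the mitochondrial iron importer mitoferrin 1, fell from 16.61 and 16.53 to 16.10 and 16.02 (-0.51 ± 0.10), and Alas1, the housekeeping form of the first enzyme, rose by 1.40 ± 0.31. Slc25a37 lost its call without D2-Control replicate 1, D2-Control replicate 2 or D2-IL6 replicate 2, and Alas1 without any 1 of the 4 arrays. Of 20 iron genes 3 rose (15%, against 2.92% of all probe sets). They were Aco1, the iron regulatory protein 1, at 2.08 ± 0.31, the iron-sensing ubiquitin ligase subunit Fbxl5 at 2.07 ± 0.40 and Hfe at 1.67 ± 0.33. Aco1 passed without each array, Fbxl5 lost its call without D2-Control replicate 2 or D2-IL6 replicate 2, and Hfe without D2-Control replicate 1 or either IL-6 array. None of 20 terminal maturation genes, 23 cell cycle genes of G2 and M, 23 replication genes and 23 cyclins and G1 genes passed in limma. Their differences ran from -0.84 to 0.57. Of the 89, 10 had an unadjusted p under 0.05, 9 of them lower and 1 higher, against 2808 of all 19572 probe sets. In the order given, 6, 5, 7 and 10 genes of these lists were lower without overlap, against 22.5% of all probe sets. Higher without overlap were 0, 1, 1 and 0, against 16.3%. In the fit of the 4 D2 arrays alone 1 of the 89 passed. The proliferation marker Mki67 read 17.11 and 17.06 against 16.97 and 17.06.

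**Figure D4:**
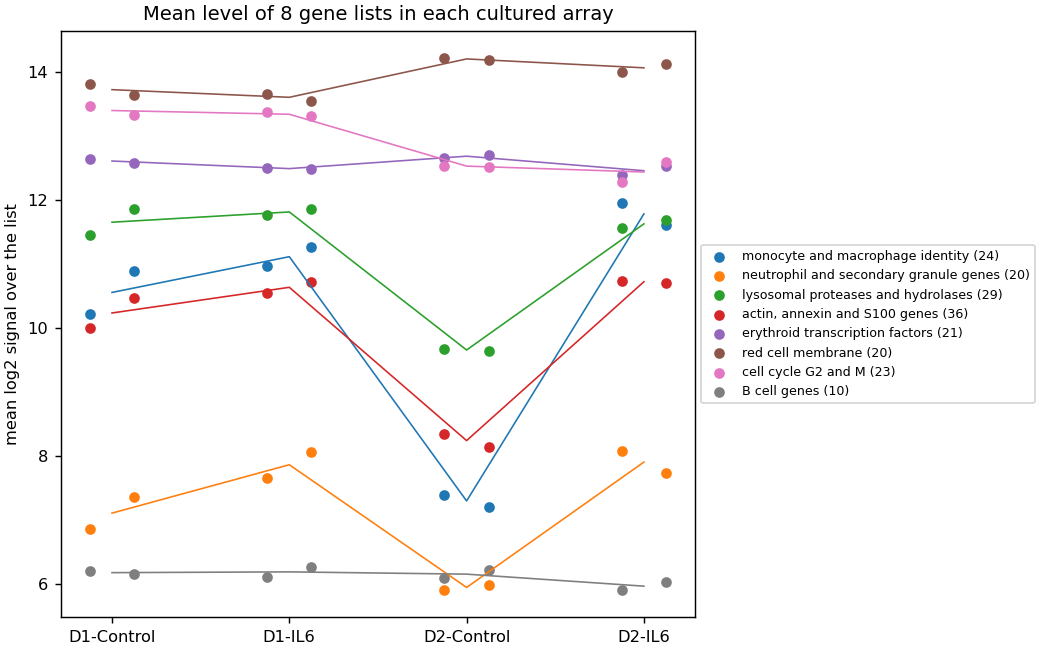
Mean log2 signal over the measured members of 8 gene lists (y axis) in each of the 8 cultured arrays (points) by group (x axis), with lines joining group means. The monocyte list falls to 7.40 and 7.21 in D2-Control and lies at 11.96 and 11.62 in D2-IL6, lysosomal and actin lists follow that course, and the erythroid transcription factors, red cell membrane genes and B cell genes vary much less.

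Markers of other cell types gave few calls. No member passed in limma among 14 mast cell and basophil, 8 eosinophil, 10 B cell and 14 T and NK cell genes. None passed among 13 megakaryocyte and platelet and 13 stroma and endothelium genes either, where 3.31% of all probe sets passed. Of all 72 genes, 7 had an unadjusted p under 0.05, 1 higher and 6 lower, against 2808 of 19572 probe sets. Cd3e, a chain of the T cell receptor complex, was near background in all 4 arrays (5.90 to 6.54), and so were 9 of the 10 B cell genes. The same held for 12 of the 14 mast cell and basophil genes and 6 of the 8 eosinophil genes. It also held for 10 of the 14 T and NK cell genes and 10 of the 13 stroma and endothelium genes. Most genes of these lists could thus hardly give a call. The megakaryocyte and platelet list was partly measurable, with 5 of 13 genes near background in all 4 arrays and 7 lower without overlap, against 22.5% of all probe sets. Itga2b, the megakaryocyte integrin chain also found on progenitors, was measurable at 10.52 and 10.37 against 10.37 and 9.26 and did not pass. Dendritic cell genes rose in 2 of 15 cases (13.3%, against 2.92% of all probe sets). These were Cst3 at 2.05 ± 0.16 and Tcf4 at 1.56 ± 0.28, both of which other myeloid cells also express. Of the other 13, 11 were near background in all 4 arrays. Of 13 stem and progenitor genes 2 rose, Cd48, which many mature leukocytes carry, at 7.59 and 7.06 against 12.18 and 11.80 (4.66 ± 0.28), and Cd34 at 1.76 ± 0.32. Tcf4 and Cd34 each lost their call without D2-Control replicate 1 or D2-IL6 replicate 2.

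The falls were few and less stable. The 10 lowest among genes above background in both control arrays ran from -1.87 to -1.30. Cnot7, a subunit of the main mRNA deadenylase, read 11.02 and 9.84 in D2-Control and 8.90 and 8.21 in D2-IL6 (-1.87 ± 0.42, adjusted p = 0.0371), and Cd46, a complement regulator, 10.24 and 10.30 against 8.95 and 8.07 (-1.76 ± 0.39). The others were Lax1, an adaptor of lymphocyte signalling, Pcdh7, Prmt3, Tssk3, Dlat, a subunit of pyruvate dehydrogenase, Rbm43, Nfia and Cnrip1. Non-overlap of the 2 groups was a condition for entering this set of 10. Only Rbm43, at 10.38 and 10.37 against 9.16 and 8.97 (-1.31 ± 0.23, adjusted p = 0.0099), passed without each array in turn. Without D2-Control replicate 1 the calls of Cnot7, Cd46, Lax1, Pcdh7, Dlat, Nfia and Cnrip1 ended, and without D2-Control replicate 2 those of Cd46, Pcdh7, Prmt3, Tssk3, Nfia and Cnrip1. Without D2-IL6 replicate 1 those of Pcdh7, Prmt3, Dlat, Nfia and Cnrip1 ended, and without D2-IL6 replicate 2 those of Cnot7, Cd46, Lax1, Pcdh7, Tssk3, Dlat and Cnrip1. Non-overlap by itself is common in 2 against 2 arrays, at 16.3% of all probe sets on the higher side and 22.5% on the lower.

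The IL-6 difference at D2 was compared with that at D1. The size of the D1 difference uses no array of D2, but its test shares the spread of the D2 arrays. At D1 10 probe sets passed (0.0511%, with 0.046% higher and 0.00511% lower), 8 of which passed at D2 too. The 2 differences differed from each other by the interaction test for 232 probe sets (1.19%), 229 with the larger value at D2 (1.17%) and 3 with the smaller (0.0153%). Of the 229, 226 were rises at D2, or 98.7% of them and 39.6% of the 571 rises. Lgals3 led, with 12.85 and 14.25 in D1-Control, 13.49 and 14.30 in D1-IL6, 7.78 and 6.46 in D2-Control and 14.11 and 13.96 in D2-IL6. Its difference was 0.34 at D1 and 6.91 at D2, 6.57 ± 0.69 apart (adjusted p = 0.0010). The others of the 10 with the largest change were Mmp8 (6.52 ± 0.57), Ctsh (6.37 ± 0.46), Pld4 (6.35 ± 0.36), Emb (6.06 ± 0.39), Tyrobp (5.93 ± 0.38), Fcgr3 (5.65 ± 0.53), Gm2a (5.55 ± 0.68), Tlr13 (5.41 ± 0.49) and Tlr7 (5.34 ± 0.61). In all 10, D2-Control was the lowest of the 4 cultured groups. By list, 21 of 24 monocyte, 19 of 36 actin, annexin and S100, and 12 of 29 lysosomal genes had a larger difference at D2. The count of 232 dropped to 118 on leaving out D1-IL6 replicate 1, to 134 for D1-IL6 replicate 2 and to 120 for D1-Control replicate 2.

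A few genes did otherwise. Lcn2 was high in both IL-6 groups (9.29 and 9.42 at D1, 10.95 and 10.46 at D2) and low in both control groups, and its change from D1 to D2 did not pass (1.72 ± 0.40, adjusted p = 0.0979). Spint1 was also higher with IL-6 at both, by 4.31 at D1 and 6.81 at D2, and its change passed (2.50 ± 0.51, adjusted p = 0.045). Axl, a receptor for apoptotic cells, read 8.04 and 8.77 in D1-Control and 6.00 and 5.87 in D1-IL6, but 5.04 and 4.63 in D2-Control and 6.33 and 6.91 in D2-IL6. Its difference thus turned from -2.47 to 1.79, near background at D2, where the call ended without D2-Control replicate 2 or D2-IL6 replicate 2. Mmp12, macrophage elastase, turned from -2.21, which did not pass, to 2.68, a call lost without D2-Control replicate 2, D2-IL6 replicate 1 or D2-IL6 replicate 2. The glucose transporter gene Slc2a1 and the IL-4 receptor gene Il4ra passed at D1 and not at D2, and their change passed. Slc2a1 read 10.71 and 10.62 against 12.35 and 11.99 at D1 and 18.48 and 18.33 against 18.30 and 18.25 at D2.

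**Figure D5:**
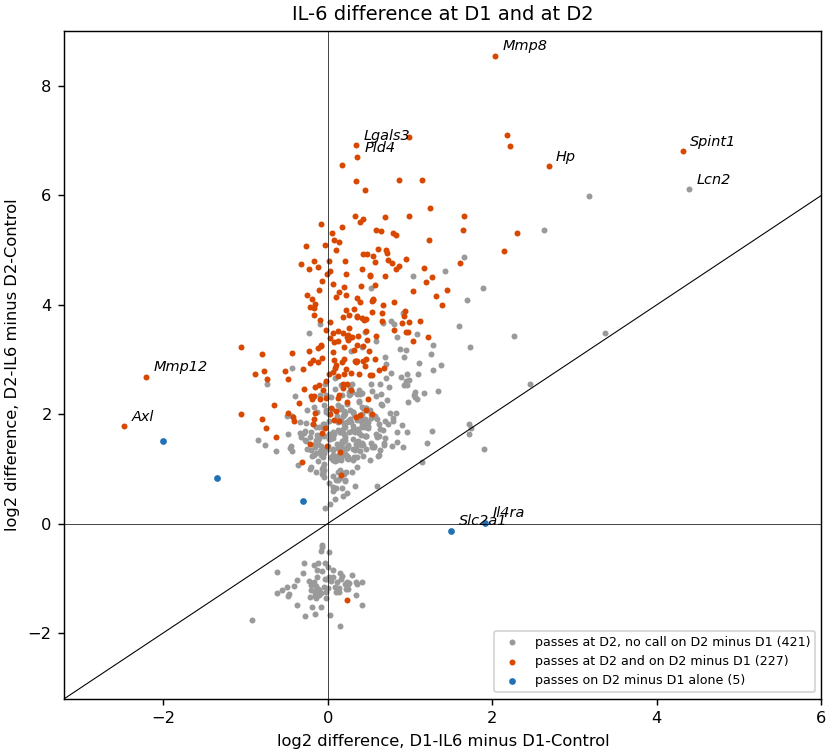
Log2 difference of IL-6 against control at D1 (x axis) and at D2 (y axis) for probe sets that pass at D2 or on the change between them; orange points pass both at D2 and on the change, and the diagonal marks equal differences. Most rises at D2 sit close to 0 at D1, Lcn2 and Spint1 are high at both, and Slc2a1 and Il4ra are high at D1 and near 0 at D2.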

How the data were processed

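RNA of the cultures was hybridised to Clariom S mouse arrays. The authors deposited 1 table of log2 signals, made by RMA in Affymetrix Expression Console per the submitters' processing notes; whether all 20 arrays were normalized together is not given in the sources used here. Of 28846 probe sets, 22206 measure transcripts and the 19572 with a gene symbol in the platform annotation (19505 genes) were tested. A model with 1 coefficient per group was fitted to the 8 cultured arrays with limma 3.58.1 in R 4.3.3 (lmFit, eBayes with an intensity trend) and p-values were adjusted by Benjamini-Hochberg over all 19572. The fit was tested on simulated data. Replicate numbers follow the accession order and pair nothing. Where both arrays of the dimmer group were near background, a bound ("at least") was taken against the higher of the background level and the probe set's own signal. It is printed for only some of these genes, so a difference given without it may also start near background.

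The genes named are the 20 highest rises and 10 lowest falls whose arrays did not overlap (falls above background in both control arrays), up to 6 passing members per list and direction, the 10 largest changes between D1 and D2, and reference genes. Members, lists and tests were chosen with earlier results of these data known. No p-value was adjusted within a list, and 0 columns of samples were left unmapped. The number of arrays limits the precision.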

Additional observations from a re-analysis of the deposited data

Results flagged for a closer look

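The IL-6 difference at D2 departed from that at D1 by limma's test of the change itself for 232 probe sets. The highest were Lgals3 (6.57 on the log2 scale), Mmp8 (6.52), Ctsh (6.37), Pld4 (6.35), Emb (6.06), Tyrobp (5.93), Fcgr3 (5.65), Gm2a (5.55), Tlr13 (5.41) and Tlr7 (5.34), each with a difference below 2.1 at D1. Mmp12 (4.89) and Axl (4.26) had lower values with IL-6 at D1 and higher ones at D2. Slc2a1 (-1.63) and Il4ra (-1.89) had the larger difference at D1, and Lipf (-1.63), near background in all 8 arrays, read 6.02 and 5.65 in D2-Control against 4.35 and 4.53 in D2-IL6. Beyond the named genes, 2634 transcript probe sets carry no gene symbol in the table used here. When tested together with the named ones, 64 of these passed at D2 (2.43%), 58 higher and 6 lower, with the highest at 6.34.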

How the results depend on the processing

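All 244 named genes that passed at D2 kept their direction in each of the 12 alternatives that held them, and 128 passed in all of those. The filter on dim probe sets left some genes out. The count of 648 (571 higher, 77 lower) became 269 (242 and 27) with all 20 arrays in 1 fit, 388 (381 and 7) with the 4 D2 arrays alone and 419 (409 and 10) with array weights. Quantile normalization, centring, a filter on dim probe sets, no intensity trend and inclusion of unnamed probe sets kept it within 1.5 times. Leaving out each D2 array in turn gave 517 to 567 calls, 466 to 473 higher and 51 to 98 lower, with 51 lower without D2-IL6 replicate 2. The count of 232 changes between D1 and D2 (229 higher, 3 lower) became 54 (53 and 1) with 20 arrays, and 118 to 230 (117 to 215 higher, 1 to 15 lower) without 1 array. The cause of these moves was not tested. No gene whose sign turned had passed: Alas2 went to 0.0011 and Klf1 to 0.0039 after quantile normalization. Without 1 array Alas2 ran from -0.0615 to 0.0292, Klf1 from -0.128 to 0.0662, Cebpa from -0.184 to 0.0721, Cebpb from -0.43 to 0.0637, Csf2rb from -0.0841 to 0.80, Il4ra from -0.22 to 0.25, S100a9 from -0.58 to 0.51 and Socs3 from -0.0063 to 0.23. No paired analysis was possible because the labels carry no shared replicate numbers and tie no array to a mouse. With 2 arrays per group and many control signals near background, the fitted differences of dim genes are imprecise, and those of genes near background in all 4 arrays give no bound.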
